A study of Mus musculus with 8 samples.

Results

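The genes described here are the Zbtb genes, a family of transcription factors named for a BTB domain joined to zinc fingers, with Zbtb16 (also called PLZF) as the member named in the study's title. They were picked by name alone, as every probe whose gene symbol in the platform annotation begins with Zbtb and a digit, which gave 39 probes for 34 genes among 15967 genes with a named probe. Expression was measured on 8 bead arrays of C57BL/6J mice, 2 for each of 4 groups, and no mutation or transgene is named for any group. The groups were brown adipose tissue, the heat-producing fat (brown fat here), after 4 h at 4 °C, brown fat at room temperature, quadriceps muscle after 4 h at 4 °C, and quadriceps muscle at room temperature. The mice placed in the cold had fed freely overnight and were then without food and bedding for the exposure. No source states how mice at room temperature were fed and bedded in those hours, so the effect of cold and of the lost food and bedding cannot be told apart. The labels do not say that the 2 arrays of a group came from separate mice, so every p-value reflects only the scatter of these samples, part of which may be technical.

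In this family the BTB domain joins proteins into dimers and binds corepressors such as NCoR, SIN3A and BCOR with their histone deacetylases, or the ubiquitin ligase scaffold CUL3, while the zinc fingers read DNA. Zbtb16 is best known for the development of innate-like lymphocytes, for the upkeep of germline stem cells in the testis and for limb patterning. Several other members, Zbtb4, Zbtb33 and Zbtb38, are known for binding methylated DNA, and others are named for lymphocytes (Zbtb1, Zbtb32), dendritic cells (Zbtb46), neurons and muscle precursors (Zbtb18) or cell cycle control with Myc (Zbtb17). Brown fat answers cold through noradrenaline, which raises cAMP in the adipocyte and acts on genes in part through the element TGACGTCA.

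Promoter windows of RefSeq (build GRCm38.p6, 300 bases around each annotated start) were matched by symbol to 20 of the 22 tested genes, in 32 windows, with none for Zbtb16 and Zbtb7c. The 5 below are shown because their genes changed in cold brown fat and they hold at least 1 match to the motifs searched: Zbtb38, Zbtb21 and Zbtb41 are among the genes that rose there, and Zbtb5 and Zbtb20 among those that fell. The windows of Zbtb12 and Zbtb8a, which fell there too, hold no match and are not shown. They lie at chr9:96719396-96719695 on the minus strand (Zbtb38, 1 of its 3 windows), chr16:97962573-97962872 on the minus strand (Zbtb21), chr1:139422133-139422432 on the plus strand (Zbtb41), chr4:45012363-45012662 on the minus strand (Zbtb5) and chr16:43247034-43247333 on the plus strand (Zbtb20). Each is written 5′ to 3′ in the direction of the gene, and capitals mark every match, on either strand, to the motifs named after the sequences.
Zbtb38: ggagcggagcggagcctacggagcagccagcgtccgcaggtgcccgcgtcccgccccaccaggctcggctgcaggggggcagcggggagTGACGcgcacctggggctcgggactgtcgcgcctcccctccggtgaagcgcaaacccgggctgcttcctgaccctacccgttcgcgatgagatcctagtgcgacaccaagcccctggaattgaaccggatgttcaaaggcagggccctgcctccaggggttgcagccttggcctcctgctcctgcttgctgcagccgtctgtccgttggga
Zbtb21: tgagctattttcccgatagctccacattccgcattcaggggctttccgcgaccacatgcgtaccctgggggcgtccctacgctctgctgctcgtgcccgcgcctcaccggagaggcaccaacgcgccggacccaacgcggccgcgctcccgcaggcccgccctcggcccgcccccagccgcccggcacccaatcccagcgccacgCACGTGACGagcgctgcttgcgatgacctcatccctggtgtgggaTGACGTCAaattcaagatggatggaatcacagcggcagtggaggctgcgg
Zbtb41: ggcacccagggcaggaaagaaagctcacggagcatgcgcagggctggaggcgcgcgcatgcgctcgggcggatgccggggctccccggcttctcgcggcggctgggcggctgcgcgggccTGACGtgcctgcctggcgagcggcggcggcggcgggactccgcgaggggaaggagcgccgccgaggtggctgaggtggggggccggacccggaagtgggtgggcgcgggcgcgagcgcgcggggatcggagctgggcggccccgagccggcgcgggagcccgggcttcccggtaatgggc
Zbtb5: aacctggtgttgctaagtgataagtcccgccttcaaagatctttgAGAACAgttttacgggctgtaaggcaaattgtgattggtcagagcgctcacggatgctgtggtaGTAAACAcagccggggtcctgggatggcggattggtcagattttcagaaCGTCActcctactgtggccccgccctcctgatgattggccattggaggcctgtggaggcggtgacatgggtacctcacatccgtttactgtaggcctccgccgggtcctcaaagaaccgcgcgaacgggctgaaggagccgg
Zbtb20: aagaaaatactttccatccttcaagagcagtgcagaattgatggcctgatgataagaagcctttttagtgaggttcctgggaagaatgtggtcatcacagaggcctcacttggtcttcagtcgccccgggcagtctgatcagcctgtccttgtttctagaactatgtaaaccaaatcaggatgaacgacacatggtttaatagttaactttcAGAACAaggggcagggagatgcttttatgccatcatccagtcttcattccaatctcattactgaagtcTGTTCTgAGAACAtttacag

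The letters searched were the cAMP response element TGACGTCA and its core TGACG, which overlaps it, AGAACA of the glucocorticoid receptor, GTAAACA of forkhead factors, the E-box CACGTG, and TCCTGCNA, the sequence bound by Zbtb33 (Kaiso). These motifs were chosen after the values were seen. The full TGACGTCA was found in the Zbtb21 window alone of the 32, and 1.79% of all 32851 windows hold it. The same Zbtb21 window holds 3 matches to TGACG in all, of which one shares letters with its CACGTG match. The core TGACG was present in 5 of the 32 windows, 1 each of Zbtb21, Zbtb25, Zbtb38, Zbtb41 and Zbtb5, against 20.8% of all windows. AGAACA was in 3 of 32 windows (Zbtb20, Zbtb46 and Zbtb5), against 19.0% of all, and the Zbtb20 window holds 3 matches. GTAAACA was in 1 window, that of Zbtb5, against 3.65% of all. CACGTG was in 4 windows, of Zbtb21, Zbtb24 and Zbtb25, against 7.15% of all, and the Zbtb25 windows overlap and hold the same match. TCCTGCNA was in 3 windows, all of Zbtb18, against 4.96% of all, and a pair of these overlaps and holds the same match. The windows of the tested Zbtb genes had a median of 23.5 CpG dinucleotides and 59.5% G or C, against 7 and 52.7% over all windows. A match is a description of the letters in the window, and no binding was measured.

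Of the 39 probes, 18 (17 genes) were above background on all 8 arrays, at a detection p under 0.05. Another 5, for Zbtb14, Zbtb21, Zbtb32, Zbtb7c and Zbtb8a, filled at least 1 group with 2 arrays above background, which made 23 tested probes for 22 genes. Zbtb14 and Zbtb32 filled only the brown fat groups, Zbtb21 only cold brown fat, and Zbtb7c and Zbtb8a only brown fat at room temperature. For these probes the filter favours calls that are higher in those groups. A further probe of Zbtb18 and the probe of Zbtb48, known for binding telomeres, were above background on 1 and 2 arrays without filling a group, and were not tested. The other 14 probes were above background on no array. They were the only probes of Zbtb1, Zbtb10, Zbtb11, Zbtb26, Zbtb33, Zbtb37, Zbtb44, Zbtb49, Zbtb6, Zbtb8b and Zbtb8os, and additional probes of Zbtb14, Zbtb21 and Zbtb43. Zbtb8os is named for the strand opposite Zbtb8 and is not itself a BTB zinc finger gene. For Zbtb14, Zbtb21 and Zbtb43 the probes of 1 gene therefore disagreed, since one was tested and the other was at background.

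Between 10468 and 11280 of 24607 probes were above background on each array, and replicates correlated across tested probes at 0.977 to 0.996. The 9 muscle fibre markers with a probe (of 10 listed) summed to an intensity of 571 and 78283 on the brown fat arrays at 4 °C and to 65578 and 79222 on those at room temperature, against 221269 and 221769 on the muscle arrays at 4 °C and 231734 and 227096 on those at room temperature. Replicate 1 of brown fat at 4 °C thus stood apart from the other 3 brown fat arrays, and on it Ckm, Tnnt3, Myh4 and Actn3 were not above background. The 9 brown fat markers, led by the uncoupling protein Ucp1 and the lipid droplet gene Cidea, summed to between 89782 and 100948 on the 4 brown fat arrays. On muscle they summed to 5297 and 50963 at 4 °C, against 1735 and 2278 at room temperature, so replicate 2 of muscle at 4 °C also stood apart. For the 2 cold muscle arrays the titles and the descriptions give opposite replicate numbers, and the numbers used here are those of the titles. In whole tissue such as this, fewer cells of a type and less RNA per cell cannot be told apart. Results are therefore also given without these 2 arrays. The brown fat arrays kept in that fit all carry muscle fibre signal, with sums from 65578 to 79222, so it is not free of muscle transcripts.

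Cold brown fat was compared with brown fat at room temperature to ask which members change within 4 h. Zbtb16 rose 4.85-fold and Zbtb38 rose 2.47-fold, with smaller rises of Zbtb21 and Zbtb41. Zbtb12, Zbtb20 and Zbtb5 fell, and Zbtb8a fell to a level not above background. Of the 23 probes, 4 were higher and 4 lower past an adjusted p of 0.05 (limma, Benjamini-Hochberg over 11946 probes), where 7.79% of all tested probes were higher and 7.49% lower. The other 15 did not pass. Among the called probes, Zbtb21 and Zbtb8a entered the tests only through the group in which they were higher. The median log2 difference of the 23 probes was -0.003, against 0.02 for all tested probes.

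Zbtb16 read 8.34 and 8.14 in log2 intensity on the cold brown fat arrays, against 6.21 and 5.71 on the brown fat arrays at room temperature. The groups do not overlap, and replicate 2 at room temperature lay near the lowest signal of a detected probe on that array (5.59). The log2 difference was 2.28 (SE 0.18, interval 1.86 to 2.69, adjusted p = 0.00137). It ran from 1.62 to 2.53 over the 20 alternatives in processing and passed the threshold in all of them. Without the 2 arrays that stood apart it was 2.17 (adjusted p = 0.00474). Natural killer T cells, in which Zbtb16 is known, carry Cd3 chains. Of the 4 T cell markers with a probe (Cd3d, Cd3e, Cd3g and Cd4, of 6 listed), none was above background on any of the 4 arrays at 4 °C. At room temperature Cd3d was above background on both brown fat arrays and Cd3e on 1 of them. The 4 markers summed to an intensity of 159 and 150 in cold brown fat, against 163 and 186 in brown fat at room temperature, all close to background. The part of lymphocytes in the Zbtb16 difference was not tested.

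Zbtb38, a protein that binds methylated CpG and acts as a repressor, read 9.08 and 8.97 in cold brown fat, against 7.91 and 7.52 at room temperature. Both cold arrays lie above both others by more than the spread within either group. The log2 difference was 1.31 (SE 0.17, adjusted p = 0.00468), and 1.25 (adjusted p = 0.0164) without the 2 arrays that stood apart. The call was kept in 19 of 20 alternatives and lost with median scaling (adjusted p = 0.328). Zbtb4, another binder of methylated DNA, read 6.10 and 6.17 against 5.87 and 5.83, a log2 difference of 0.28 that did not pass (adjusted p = 0.101). The only probe of Zbtb33, of the same group, was at background.

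Zbtb21 and Zbtb41 are poorly characterised zinc finger genes. Zbtb21 read 6.66 and 6.23 in cold brown fat, against 5.80 and 5.50 at room temperature, where only 1 of the 2 arrays was above background. Its log2 difference was 0.80 (SE 0.21, adjusted p = 0.0437). Zbtb21 entered the tests only through cold brown fat, the group where it was high, which favours a call in this direction. Zbtb41 read 8.48 and 8.21 in cold brown fat, against 7.94 and 7.77 at room temperature, a difference of 0.49 (SE 0.13, adjusted p = 0.0463). Neither pair of groups overlaps, but both calls are close to the threshold and each was kept in only 6 of the alternatives run, 18 for Zbtb21 and 20 for Zbtb41.

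Zbtb12 gave the largest fall among the tested Zbtb probes. It read 6.05 and 6.47 in cold brown fat, against 7.34 and 7.77 without cold, a log2 difference of -1.30 (SE 0.22, adjusted p = 0.0111). The groups are separated by more than the distance between replicates. Zbtb12 was also higher in muscle than in brown fat, and the cold array with the lower value is the one with little muscle fibre signal. Without the 2 arrays that stood apart the difference was -1.09 (adjusted p = 0.0348). The part of muscle fibre RNA in the Zbtb12 fall was not tested.

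Zbtb5, which represses the cell cycle inhibitor Cdkn1a in human cells, read 7.78 and 7.87 in cold brown fat, against 8.59 and 8.51 at room temperature. The replicates lie close together in both groups. The log2 difference was -0.73 (SE 0.16, adjusted p = 0.0250). Zbtb20, a repressor known from the liver, where it silences the fetal gene Afp, read 9.98 and 10.40 in cold brown fat, against 10.96 and 11.06 at room temperature. Its difference was -0.82 (SE 0.19, adjusted p = 0.0300), and without the 2 arrays that stood apart it was -0.61 (adjusted p = 0.0431). Zbtb8a was not above background on either cold array, at 5.41 and 5.43, against 5.86 and 5.95 at room temperature. Its fall is given as a bound, at least 1.25-fold lower (adjusted p = 0.0220), set by the brighter group's mean against, per dim array, the higher of the lowest detected signal and the probe's own. Zbtb8a entered the tests only through brown fat at room temperature, the group where it was high, which favours a call in this direction.

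Among the 15 probes that did not pass, those nearest the threshold were a Zbtb18 probe, Zbtb17 and Zbtb43. Zbtb18, a repressor needed for neuron and muscle precursor differentiation, read 6.81 and 6.97 on its brighter probe in cold brown fat, against 7.53 and 7.13 at room temperature (adjusted p = 0.104). Its other tested probe read 6.69 and 7.04 in cold brown fat, against 7.33 and 7.50 (log2 difference -0.55, adjusted p = 0.0566). Zbtb17 (Miz-1), which works with Myc at cell cycle genes, read 9.34 and 9.41 in cold brown fat, against 8.88 and 9.01 (0.43, adjusted p = 0.0694). Zbtb43 read 6.69 and 6.83, against 6.42 and 5.79 (0.66, adjusted p = 0.0732). The groups of each of these probes do not overlap. Of the 23 tested probes, 9 were higher and 7 lower in cold brown fat without overlap. The share over all tested probes was not counted, so nothing is read from the lack of overlap. For the other probes, Zbtb14, Zbtb22, Zbtb24, Zbtb25, Zbtb3, Zbtb32, Zbtb39, Zbtb46, Zbtb7a, Zbtb7c and Zbtb4 included, differences lay between -0.29 and 0.28. The smallest were those of Zbtb24 and Zbtb3, at -0.003 each, with intervals of -0.31 to 0.30 and of -0.25 to 0.25.

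The count of 8 called probes depended on single libraries. It was 4 without replicate 1 and 2 without replicate 2 of brown fat at room temperature, 3 without replicate 1 of cold brown fat, and 4 without either muscle array at room temperature. The share of all tested probes called in either direction was also lower in these fits, at 7.06%, 5.11%, 6.51% and 9.73% in the same order, against the 7.79% higher and 7.49% lower with all arrays. The calls of Zbtb5, Zbtb20, Zbtb8a, Zbtb41 and Zbtb21 were each lost when either room temperature brown fat array or replicate 1 of cold brown fat was left out, and that of Zbtb12 when replicate 2 at room temperature or replicate 1 in the cold was. Leaving out both arrays that stood apart keeps only replicate 2 of cold brown fat. The log2 differences were then -0.48 for Zbtb8a, 0.36 for Zbtb41, 0.58 for Zbtb21 and -0.68 for Zbtb5. That of Zbtb46 was -0.61, against -0.24 with all arrays. Zbtb46 read 7.04 and 6.30 in cold brown fat, against 6.93 and 6.90 at room temperature. Median scaling left 2 of the 8, Zbtb16 and Zbtb12, and moved the median of all tested probes to -0.11.

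**Figure D1:**
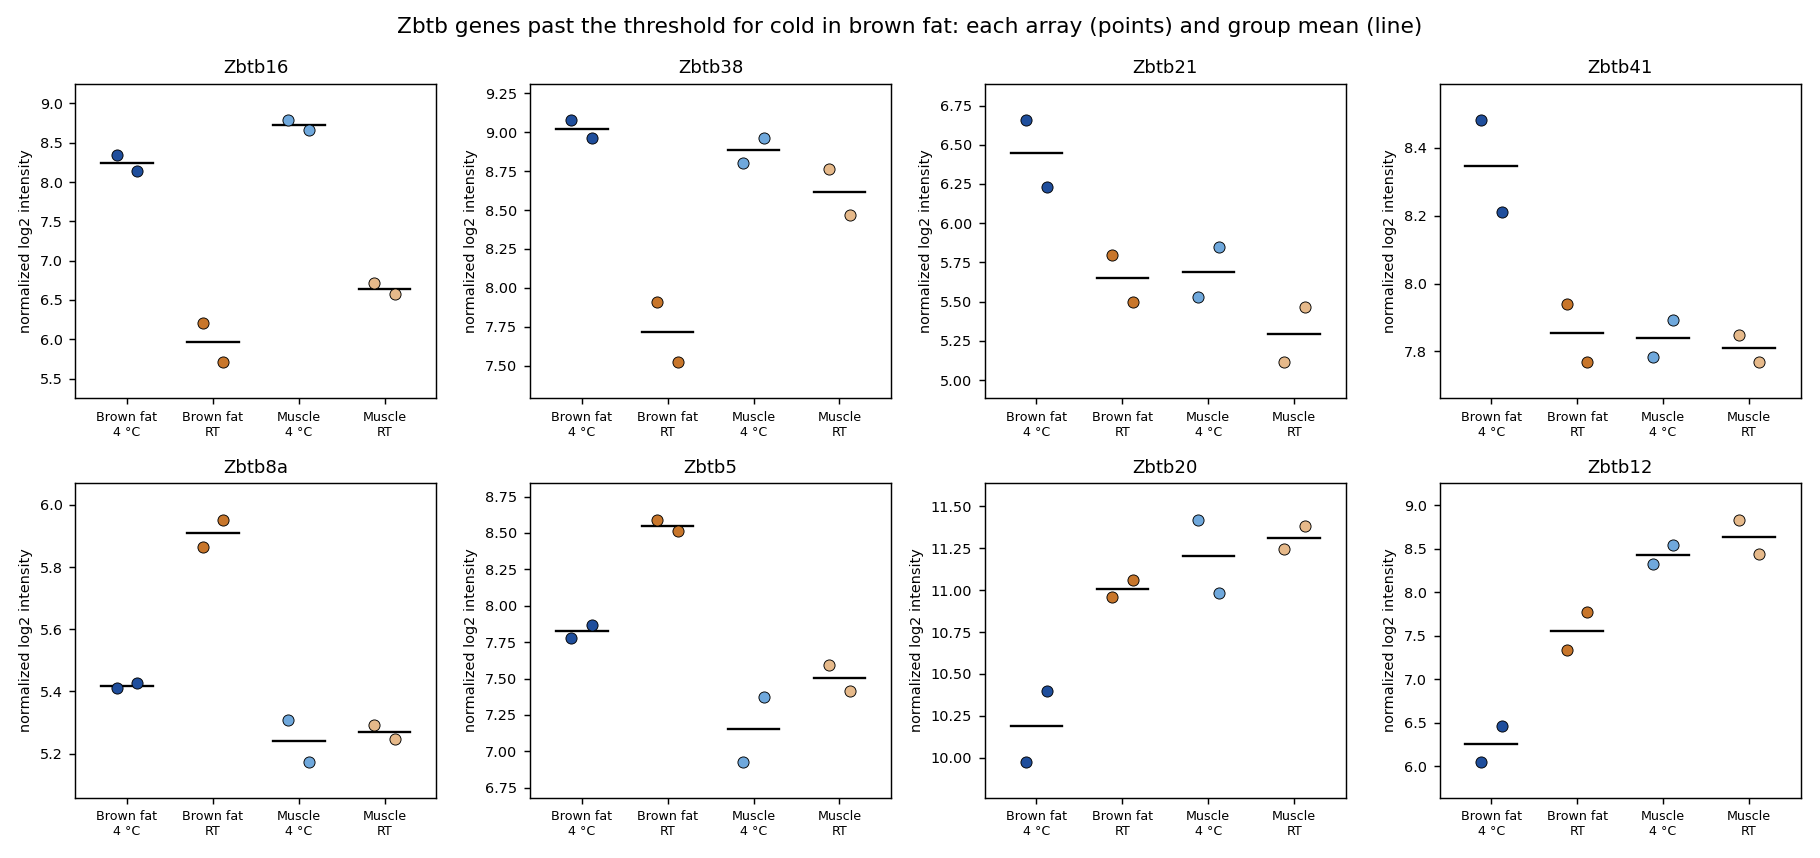
Normalized log2 intensity (vertical axis) of the 8 Zbtb probes past the threshold for cold in brown fat, with 1 point per array, a line at the mean of each group and, from left to right, brown fat at 4 °C, brown fat at room temperature, muscle at 4 °C and muscle at room temperature. Zbtb16 is near 8.2 in cold brown fat and 8.7 in cold muscle, above both room temperature groups, while in the panel of Zbtb38 the separation is seen in brown fat and the muscle groups lie close together.

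The same comparison in muscle asked whether the cold changed these genes in a tissue that makes heat by shivering. Zbtb16 alone passed, 4.25-fold higher, so 1 of 23 probes was called, where 3.43% of all tested probes were called in either direction. Cold muscle gave Zbtb16 values of 8.79 and 8.67, against 6.71 and 6.57 in muscle at room temperature. The distance between the groups is many times that between replicates. The log2 difference was 2.09 (SE 0.18, interval 1.67 to 2.50, adjusted p = 0.00381). It ran from 1.59 to 2.16 over the 20 alternatives and passed in all, with a highest adjusted p of 0.0474 when replicate 2 of muscle at room temperature was left out. On the cold muscle array with the high brown fat signal Zbtb16 was the lower of the pair, and without the 2 arrays that stood apart the difference was 2.15 (adjusted p = 0.00908).

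The other 22 probes did not pass in muscle. The median log2 difference of the 23 probes was -0.05, against -0.02 for all tested probes. Zbtb7a (LRF), a repressor known from human red blood cells, where it silences fetal globin genes, gave the next largest difference. It read 6.78 and 6.66 in cold muscle, against 7.37 and 7.38 at room temperature (-0.65, SE 0.18, adjusted p = 0.103). The groups do not overlap, but nothing is read from this. Of the 23 probes 5 were higher and 8 lower in cold muscle without overlap, and the share over all tested probes was not counted. The unadjusted p was under 0.05 for Zbtb7a and Zbtb16, 2 of 23, against 19.7% of all tested probes. The members that changed in cold brown fat gave log2 differences in muscle of 0.27 for Zbtb38 (8.80 and 8.97, against 8.76 and 8.47), -0.21 for Zbtb12, -0.11 for Zbtb20, -0.35 for Zbtb5 and 0.03 for Zbtb41, none past the threshold. Zbtb21 did not pass either, and no difference is given for it, since it was above background on 1 cold muscle array and on neither at room temperature. Zbtb8a was at background on all 4 muscle arrays.

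Whether the cold effect differed between brown fat and muscle was tested as an interaction. No probe of 23 passed in limma, where 3.35% of all tested probes did, and 10 of 23 had an unadjusted p under 0.05, against 23.1% of all. The effects on Zbtb16 differed by 0.19 (brown fat minus muscle, interval -0.40 to 0.77, adjusted p = 0.689), so a difference of up to 0.77 is not excluded. Zbtb38 came nearest to the threshold, with a difference of 1.04 (SE 0.24, interval 0.49 to 1.59, adjusted p = 0.0619), and it passed when the variance was fitted with a trend and robust moderation. Zbtb17 followed with 0.70 (adjusted p = 0.0904), having moved by 0.43 in brown fat and by -0.27 in muscle, and passed when replicate 1 of cold muscle was left out. Zbtb12 differed by -1.09 (adjusted p = 0.0999). It is therefore not shown that any of the changes in cold brown fat is particular to that tissue.

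**Figure D2:**
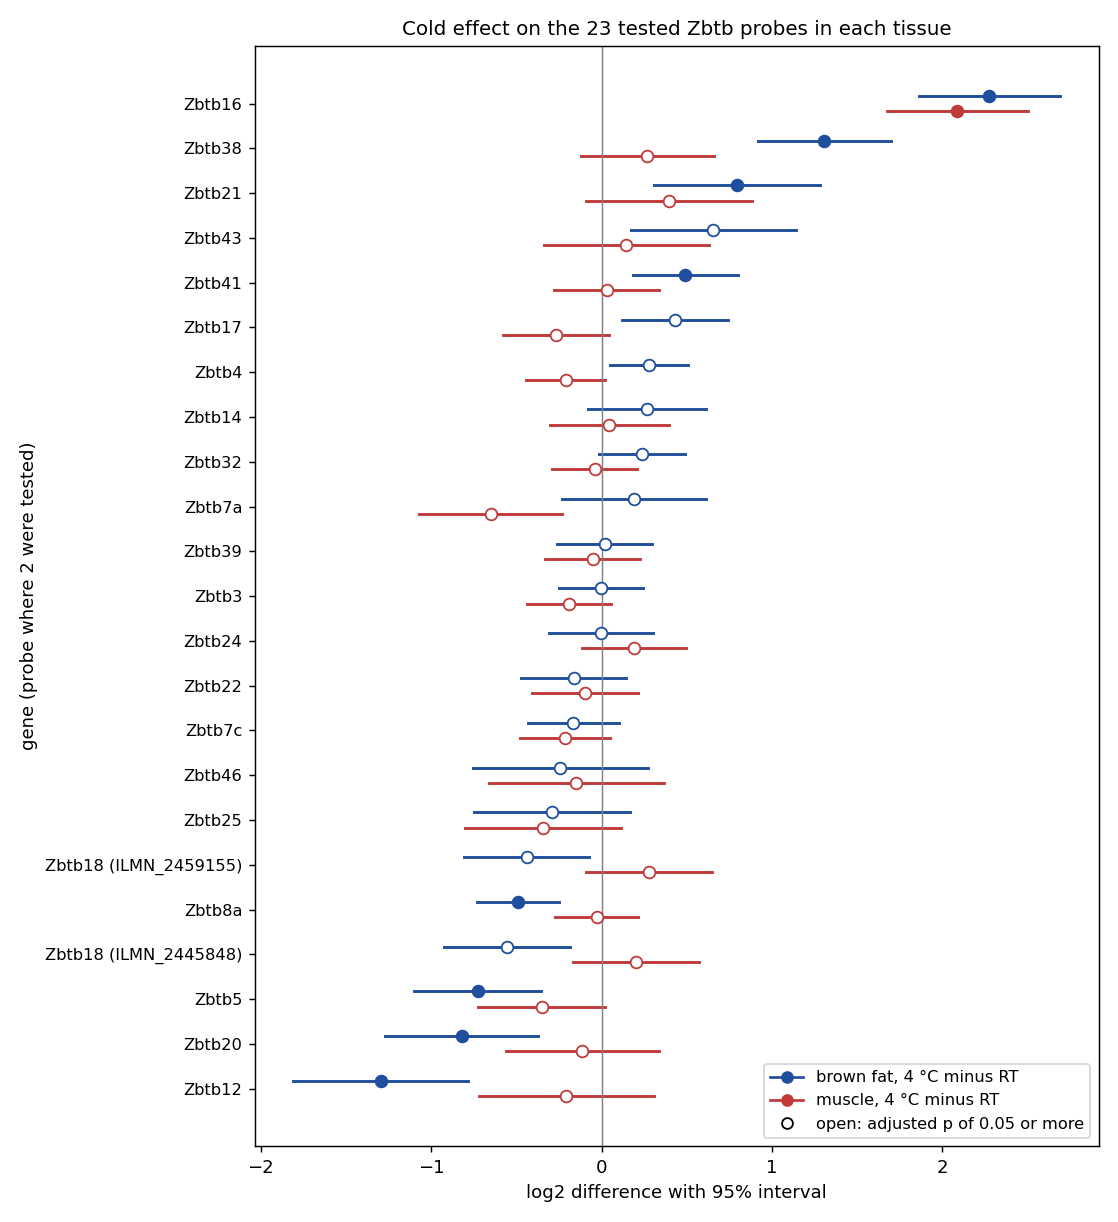
Cold effect (4 °C minus room temperature, log2, horizontal axis) of each tested Zbtb probe in brown fat and in muscle, with 95% intervals and filled points where the adjusted p is under 0.05. Zbtb16 lies at 2.28 in brown fat and 2.09 in muscle, apart from every other probe in muscle, where the interval of Zbtb7a is the only other one that does not include 0.

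At room temperature, brown fat was compared with muscle to give the tissue pattern of the family. Zbtb18, Zbtb17, Zbtb25, Zbtb12, Zbtb38 and Zbtb16 were lower in brown fat, and Zbtb14, Zbtb5, Zbtb46, Zbtb32 and Zbtb8a were higher. By probe, 5 were higher and 7 lower of 23, where 33.0% of all tested probes were higher and 32.9% lower. Among the higher ones, Zbtb14, Zbtb32 and Zbtb8a entered the tests only through brown fat, which favours that direction. The median log2 difference of the 23 probes was -0.03, against -0.005 for all tested probes.

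Zbtb18 showed the largest tissue difference and did so on 2 probes. Its brighter probe (ILMN_2459155) read 7.53 and 7.13 in brown fat, against 9.78 and 9.97 in muscle, and the other (ILMN_2445848) read 7.33 and 7.50 in brown fat, against 9.24 and 9.06 in muscle. Both probes place every muscle array above every brown fat array. The log2 differences were -2.55 (SE 0.16, adjusted p = 1.57e-05) and -1.74 (SE 0.16, adjusted p = 7.13e-05). In the cold they were -3.26 and -2.49, from 6.81 and 6.97 in brown fat against 10.17 and 10.13 in muscle on the brighter probe, and from 6.69 and 7.04 in brown fat against 9.46 and 9.24 in muscle on the other. The additional, untested Zbtb18 probe read between 5.12 and 5.75 on the 8 arrays and was above background on 1 of them.

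Without cold, Zbtb17 read 8.88 and 9.01 in brown fat, against 10.92 and 11.02 in muscle (-2.03, SE 0.13, adjusted p = 1.94e-05), and in the cold 9.34 and 9.41, against 10.86 and 10.55 (-1.33, adjusted p = 0.000118). Every muscle array lies above every brown fat array at either temperature. Zbtb25, a repressor studied in T cells, read 6.51 and 6.96 in brown fat, against 7.86 and 7.91 in muscle (-1.15, SE 0.19, adjusted p = 0.00148), and in the cold 6.54 and 6.35, against 7.76 and 7.33 (-1.10, adjusted p = 0.00192). Zbtb12 read 7.34 and 7.77, against 8.84 and 8.44 (-1.08, SE 0.22, adjusted p = 0.00344). In the cold the Zbtb12 values were 6.05 and 6.47 in brown fat, against 8.32 and 8.55 in muscle, a difference of -2.17 (adjusted p = 0.000124). Zbtb18, Zbtb17, Zbtb25 and Zbtb12 kept their calls at both temperatures in all alternatives run. Muscle fibre markers were above background in full on 3 of the 4 brown fat arrays, and their part in these differences was not tested. On the brown fat array with a muscle fibre sum of 571, the brighter Zbtb18 probe read 6.81, Zbtb25 read 6.54 and Zbtb12 read 6.05, and all 3 lay below every muscle array.

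For Zbtb16 the difference of brown fat minus muscle was -0.68 at room temperature (SE 0.18, adjusted p = 0.0114) and -0.49 in the cold (adjusted p = 0.0425). The groups do not overlap at either temperature. The call at room temperature was lost in 3 of 20 alternatives, among them without replicate 2 of brown fat or replicate 1 of muscle at room temperature (-0.43, adjusted p = 0.0543, and -0.61, adjusted p = 0.0674). The call in the cold was lost in 9 of 20, and over all 20 the adjusted p ran from 0.0155 to 0.170. It was lost without replicate 1 or 2 of any group but brown fat at room temperature. Zbtb38 was lower in brown fat at room temperature by -0.90 (SE 0.17, adjusted p = 0.00224), from 7.91 and 7.52 in brown fat against 8.76 and 8.47 in muscle. In the cold its values overlapped, at 9.08 and 8.97 in brown fat against 8.80 and 8.97 in muscle, with a difference of 0.14 that did not pass (interval -0.25 to 0.53, adjusted p = 0.487). For Zbtb20 the call was made in the cold only. Its difference at room temperature was -0.30 (adjusted p = 0.195), and in the cold it read 9.98 and 10.40 in brown fat, against 11.42 and 10.98 in muscle (-1.01, SE 0.19, adjusted p = 0.00253). The tests of the changed tissue difference are the interaction tests above, which these genes did not pass.

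**Figure D3:**
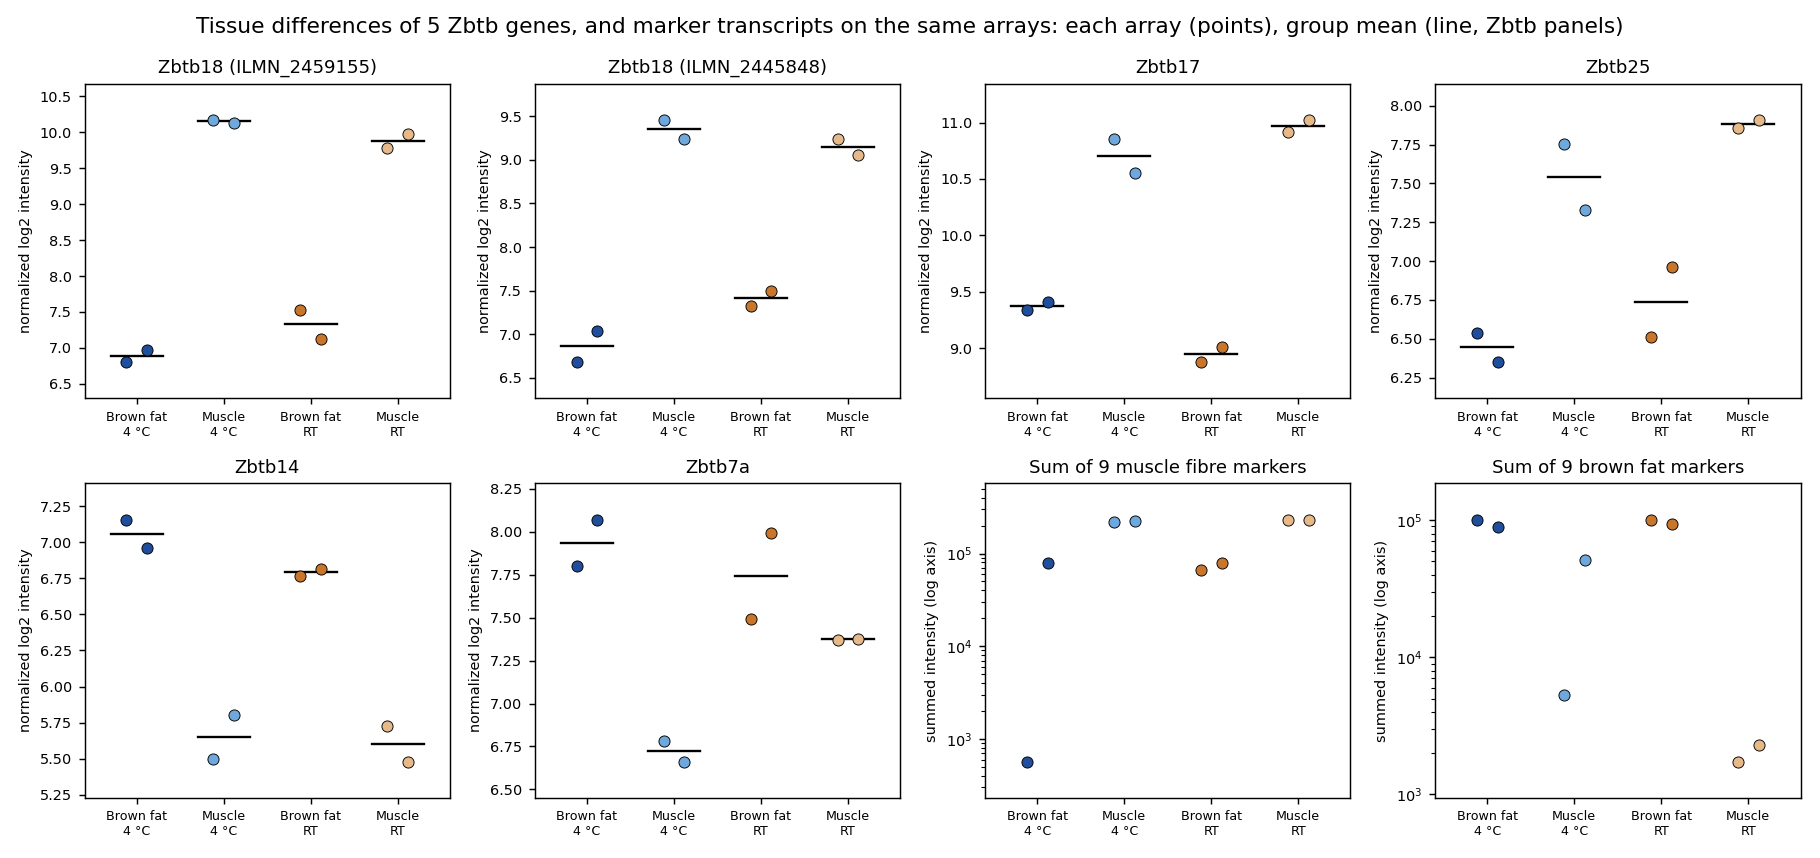
Normalized log2 intensity of Zbtb18 (2 probes), Zbtb17, Zbtb25, Zbtb14 and Zbtb7a on each array, with a line at each group's mean, and the summed intensity of 9 muscle fibre and 9 brown fat markers on a log axis; groups run from left to right as brown fat and muscle at 4 °C, then brown fat and muscle at room temperature. The Zbtb18, Zbtb17 and Zbtb25 points are lower in brown fat, the Zbtb14 points higher, and the marker panels show 1 cold brown fat array with a muscle fibre sum of 571 and 1 cold muscle array with a brown fat sum of 50963.

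Among the members higher in brown fat, Zbtb14 (ZF5), which binds GC-rich promoters such as that of Myc, had room temperature values of 6.77 and 6.81, against 5.73 and 5.48 in muscle, where 1 of 2 arrays was above background (1.19, SE 0.15, adjusted p = 0.000318). In the cold its difference was 1.41 (adjusted p = 0.000155), from 7.16 and 6.96 in brown fat against 5.50 and 5.80 in muscle. It kept the call in all 19 alternatives in which it was tested, at both temperatures. Without cold, Zbtb5 read 8.59 and 8.51 in brown fat, against 7.59 and 7.41 in muscle (1.05, SE 0.16, adjusted p = 0.000848), and in the cold 7.78 and 7.87, against 6.93 and 7.37 (0.67, adjusted p = 0.00753). Zbtb46, known from classical dendritic cells and endothelium, read 6.93 and 6.90, against 6.04 and 6.03 (0.88, SE 0.22, adjusted p = 0.00945). The 5 endothelial markers summed to 6276 and 5913 on those brown fat arrays, against 2462 and 2151 on the muscle arrays, and the 4 macrophage markers with a probe (of 6) to 2121 and 2479, against 758 and 694. No list of dendritic cell markers was among those used. The part of endothelial cells, macrophages or dendritic cells in the Zbtb46 difference was not tested.

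Zbtb32, a repressor of GATA factors in lymphocytes, was not above background on any muscle array and in brown fat read 5.93 and 6.02 in the cold and 5.68 and 5.80 at room temperature. Its muscle readings were 5.05 and 5.17 in the cold and 5.18 and 5.13 at room temperature. It was at least 1.05-fold higher in brown fat at room temperature (adjusted p = 0.00211) and at least 1.36-fold higher in the cold (adjusted p = 0.000328). The 3 B cell markers with a probe (of 4) summed to between 130 and 164 on the brown fat arrays and between 123 and 154 on the muscle arrays. Of these, Cd79b was above background on both brown fat arrays at room temperature (6.39 and 6.08) and on replicate 1 in the cold (5.74). In muscle, Cd79b (6.08) and Ms4a1 (5.67) were above background on replicate 1 at room temperature only. The T cell marker Cd3d was above background on both brown fat arrays at room temperature. The part of lymphocytes in the Zbtb32 difference was not tested. At room temperature Zbtb8a read 5.86 and 5.95 in brown fat, against 5.29 and 5.25 in muscle, where it was not above background, and was at least 1.18-fold higher in brown fat (adjusted p = 0.00113). Zbtb7c, the nearest relative of Zbtb7a among the members, was above background only on the 2 brown fat arrays at room temperature, at 5.73 and 5.62, and passed in no comparison.

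In the cold, 8 probes were higher and 7 lower in brown fat than in muscle, where 34.2% of all tested probes were higher and 29.6% lower. Among the higher ones, Zbtb14, Zbtb32 and Zbtb21 entered the tests only through brown fat, which favours that direction. The median was 0.14, against 0.07 for all tested probes. Members with a call here and none at room temperature were Zbtb7a, Zbtb21, Zbtb41, Zbtb4 and Zbtb20. Zbtb7a read 7.80 and 8.07 in brown fat, against 6.78 and 6.66 in muscle (1.21, SE 0.18, adjusted p = 0.000788). Its room temperature values were 7.49 and 7.99 in brown fat, against 7.37 and 7.38 in muscle (0.37, adjusted p = 0.106), and the interaction was 0.84 (adjusted p = 0.112). Zbtb21 read 6.66 and 6.23 in cold brown fat, against 5.53 and 5.85 in cold muscle, where 1 of 2 arrays was above background (0.76, adjusted p = 0.0144). Zbtb41 read 8.48 and 8.21 in cold brown fat, against 7.78 and 7.89 in cold muscle (0.51, adjusted p = 0.0110). For Zbtb4 the values were 6.10 and 6.17, against 5.89 and 5.81 (0.28, adjusted p = 0.0379). None of these 3 pairs of groups overlaps, but nothing is read from this. Of the 23 probes 11 were higher and 7 lower in cold brown fat than in cold muscle without overlap. Their share over all tested probes was not counted. The Zbtb4 call was kept in 3 of the 19 alternatives in which it was tested, and those of Zbtb21 and Zbtb41 were both lost without replicate 1 of cold brown fat or replicate 1 of cold muscle. Zbtb46, with 7.04 and 6.30 in cold brown fat against 5.82 and 5.96 in cold muscle (0.78, adjusted p = 0.0157), lost its call without replicate 1 of cold muscle. Zbtb22, Zbtb24, Zbtb3, Zbtb39 and Zbtb43 passed in none of the 5 comparisons. Of these, Zbtb39 varied least, between 7.87 and 8.15 on all 8 arrays.

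**Figure D4:**
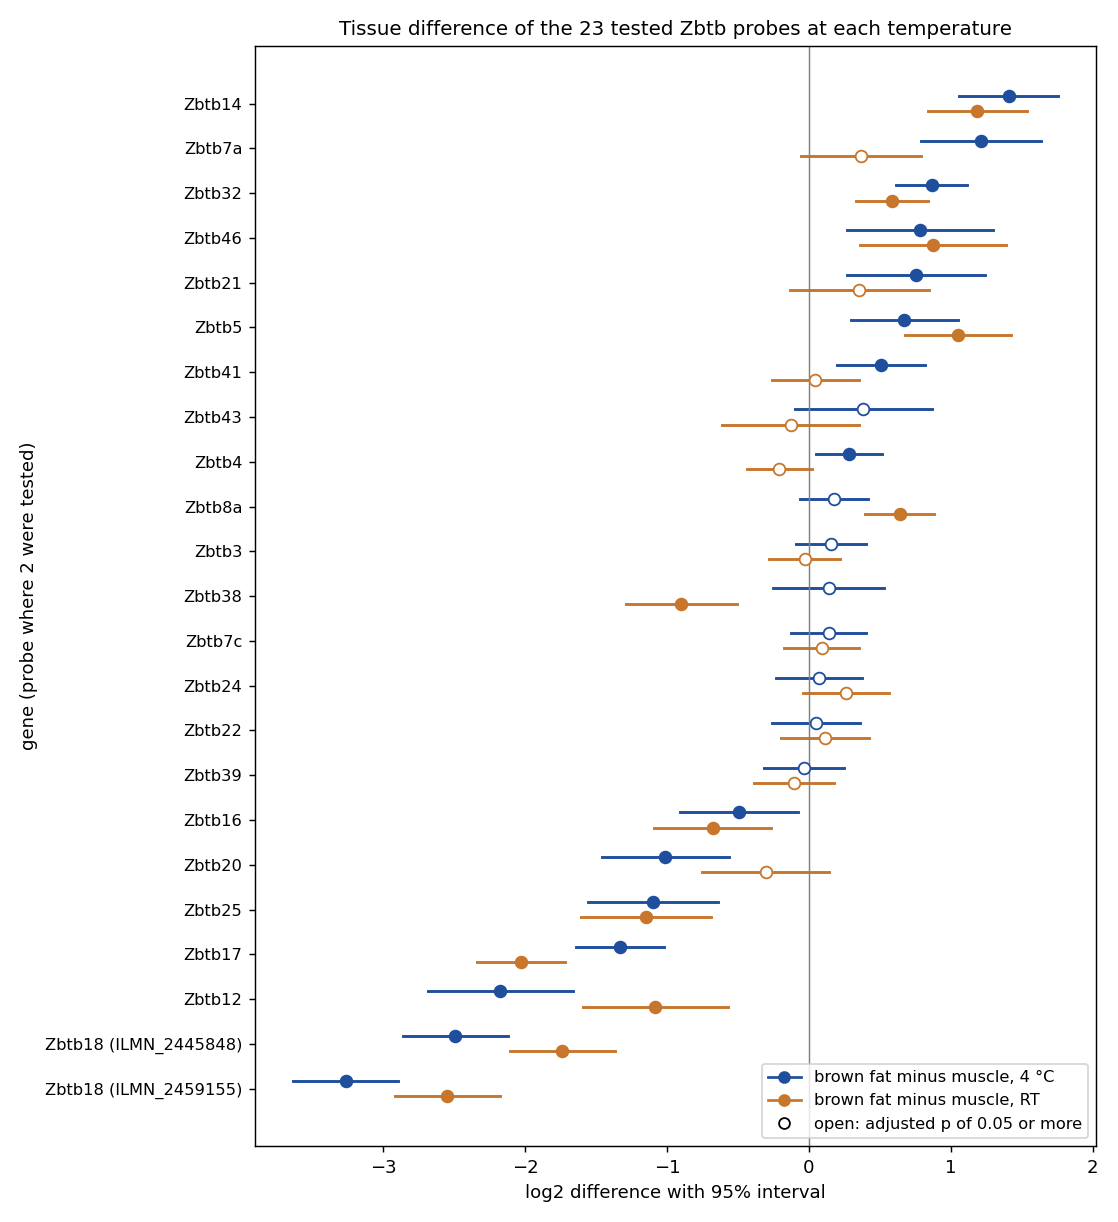
Tissue difference (brown fat minus muscle, log2, horizontal axis) of each tested Zbtb probe at 4 °C and at room temperature, with 95% intervals and filled points where the adjusted p is under 0.05. The 2 Zbtb18 probes lie lowest, at -3.26 and -2.49 in the cold, and Zbtb14 lies highest, at 1.41.

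Genes of the same family under other names, and the corepressor partners of BTB proteins, were taken from lists. For each listed gene only the tested probe with the highest mean intensity was used, and any other probe was not examined. Of 12 further BTB zinc finger genes, 4 entries (Zfp161, Zfp238, Zfp295 and Zfp509) are older symbols of Zbtb14, Zbtb18, Zbtb21 and Zbtb49 and had no probe of their own. Of the other 8, all with a probe, 7 were tested. In cold brown fat 1 rose and none fell: Zfp131 read 11.48 and 11.48, against 11.01 and 10.90 (0.53, SE 0.10, adjusted p = 0.0150). The median of the 7 was 0.44, against 0.02 for all tested probes, of which 7.79% were higher and 7.49% lower. In cold muscle 1 fell: Hic1, a tumour suppressor and repressor, read 6.45 and 6.40, against 7.23 and 7.43 (-0.90, SE 0.17, adjusted p = 0.0375). Over all tested probes 3.43% were called in cold muscle in either direction. For Bcl6, the repressor of germinal centre B cells, brown fat was below muscle, both at room temperature (-1.04, adjusted p = 0.0142) and in the cold (-0.92, adjusted p = 0.0236). Mynn was lower at room temperature (-0.81), so that 2 of 7 were lower and none higher there, where 32.9% of all tested probes were lower and 33.0% higher. In the cold Hic1 (1.35) and Bcl6b (1.16) were higher and Hic2 (-0.65) was lower beside Bcl6, with 2 of 7 in each direction. The shares of all tested probes in the cold were 34.2% higher and 29.6% lower.

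Of 25 corepressor genes, 20 had a probe and 18 were tested. The cold effect passed in brown fat for 1 of 18, where 7.79% of all tested probes were higher and 7.49% lower. This was Bcor, the BTB-binding corepressor, which read 6.72 and 6.44, against 7.16 and 7.39 at room temperature (-0.69, SE 0.14, adjusted p = 0.0193). In muscle the cold effect passed for 1 of 18, where 3.43% of all tested probes were called in either direction. This was the class IIa deacetylase Hdac4, which read 10.46 and 10.72, against 9.73 and 9.62 (0.92, SE 0.12, adjusted p = 0.0145). The interaction for Hdac4 was -0.78 and did not pass (adjusted p = 0.0575). Between tissues 4 of 18 were higher and 9 lower in brown fat at room temperature, where 33.0% of all tested probes were higher and 32.9% lower, with a median of -0.50, against -0.005 for all tested probes. The higher ones were Hdac1 (1.37), Tbl1x (0.80), Hdac7 (0.60) and Ctbp2, which was above background on neither muscle array and at least 1.70-fold higher in brown fat. Ctbp2 entered the tests only through brown fat, and Ctbp1, among the lower ones, only through muscle. At both temperatures this favours the directions in which they were called. The lower ones were led by Hdac4 (-2.14), the ligase scaffold Cul3 (-1.47), Gps2 (-1.44), a subunit of the NCoR complex, and the Polycomb subunit Eed (-1.01), with Bcor, Ctbp1, Hdac3, Hdac5 and Hdac2 between -0.84 and -0.50. In the cold 4 of 18 were higher and 9 lower, where 34.2% of all tested probes were higher and 29.6% lower, with a median of -0.38, against 0.07. The higher ones were Hdac1 (1.13), Tbl1x (0.92), Ctbp2 (0.70, with 1 of 2 muscle arrays above background) and Hdac7 (0.59). The lower ones were Hdac4 (-2.91), Bcor (-1.18), Gps2 (-0.98), Cul3 (-0.97), the Polycomb subunit Bmi1 (-0.96), Eed (-0.86), Hdac3 (-0.79), Hdac2 (-0.47) and Ctbp1, which was above background on neither brown fat array and at least 1.45-fold lower there. Bmi1 did not pass at room temperature (-0.49, adjusted p = 0.0914), and Hdac5 did not pass in the cold (-0.29, adjusted p = 0.127).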

How the data were processed

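Total RNA of each sample was amplified, biotin-labelled and hybridised to a 1-colour bead array, per the labels' protocols. The deposited table holds an intensity for each of 24607 probes per array on a linear scale, per the file headers, with no background subtracted or scaling between arrays, as judged from the values. A deposited detection score beside it rises with the intensity (Spearman's rho of at least 0.988), so its complement was taken as the detection p. The authors' processed intensity table was used as an alternative. How the authors made both tables is not given in the sources used here.

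In R 4.3.3 with limma 3.58.1, intensities were corrected by normexp with negative controls inferred from the detection p-values, given an offset of 16, quantile normalized over 8 arrays and put on the log2 scale. The 11946 probes that filled 1 or more groups with both arrays at a detection p under 0.05 were fitted with 4 group means and eBayes (4 residual degrees of freedom, 3.24 added by moderation), with Benjamini-Hochberg adjustment over all of them. SE is the standard error of a log2 difference, intervals are at 95%, and n = 2 arrays a group, which limits the precision. With so few arrays, groups without overlap were common among the Zbtb probes, and their share over all probes was not counted. Summed marker intensities are sums of normalized linear values, from the probe with the highest mean for each gene. The fit was tested on simulated data with known changes.

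Gene names came from the platform annotation, in which 20980 probes carry 1 symbol, 1 several and 3626 none. Of the 20980, 20964 matched RefSeq mouse genes by gene identifier. The members, lists, tests and alternatives were chosen with earlier results of these data known. Every member is named, with values on each array where it passed the threshold, and members of the other lists are named where they passed. Same-numbered replicates did not all deviate together (correlations of deviations from -0.12 to 0.16), and the labels number the cold muscle arrays in opposite ways, so the numbers were not used as pairs. The 20 alternatives covered the background correction, scaling, the authors' table, the detection filter, 1 probe per gene, the samples in the fit, the variance model, a replicate block, each array left out, and both arrays that stood apart left out.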

Additional observations from a re-analysis of the deposited data

How the results depend on the processing

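No called value changed its direction under any alternative run. Among the values of single probes, the side of the threshold stayed the same in 2072 cases, the call was lost in 96 and it was gained in 14. The count of probes past the threshold for cold in brown fat, 8 in the report, was 2 with median scaling, 5 with the brown fat arrays fitted alone and 5 with the replicate number as a block, although the numbers do not pair the samples. It ran from 2 to 8 with 1 array left out. Apart from median scaling, these fits rest on fewer arrays or fewer degrees of freedom. The share of all tested probes called was 8.78% with the brown fat arrays alone and 12.1% with the block. In the main fit it was 7.79% higher and 7.49% lower. The cause of the median scaling change was not tested. That setting moved the median of all tested probes to -0.11 for cold in brown fat, -0.19 for cold in muscle, -0.22 for the tissue difference at room temperature and -0.11 for that in the cold, and left 46 probes higher and 154 lower for cold in brown fat over the whole array, against 930 and 895. It also reduced the tissue difference to 7 probes (1 higher and 6 lower) at room temperature, against 12 (5 and 7), and to 7 probes (1 and 6) in the cold, against 15 (8 and 7). Over all tested probes 33.2% were then called at room temperature, against 33.0% higher and 32.9% lower in the main fit. In the cold 28.3% were called, against 34.2% higher and 29.6% lower. The interaction count of 0 became 1 with a variance trend and robust moderation (Zbtb38). Of all tested probes 4.56% were called in that fit, against 3.35% in the main fit. The count for cold in muscle was 1 in every alternative that kept 2 arrays in each group compared. In those, between 0.68% and 4.26% of all tested probes were called. The block changed no other count of Zbtb probes by more than 1.5 times. Probes close to background (Zbtb8a, Zbtb32, Zbtb7c, Zbtb21) are limited by their signal over background.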

Other observations

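Other cell types left marker signal as follows, as summed normalized intensity. The 5 fibroblast markers gave 8820 and 8227 in cold brown fat, 7901 and 7959 in brown fat at room temperature, 13847 and 14174 in cold muscle and 15205 and 15136 in muscle at room temperature. The 1 Schwann cell marker with a probe (of 3) gave 266 and 331 in cold brown fat, 242 and 285 in brown fat at room temperature, 260 and 255 in cold muscle and 425 and 618 in muscle at room temperature. Endothelial markers gave 4958 and 3863 in cold brown fat and 1841 and 1979 in cold muscle, and macrophage markers 2646 and 1319 in cold brown fat and 968 and 794 in cold muscle. Zbtb46, which read 7.04 and 6.30 on the 2 cold brown fat arrays, was the tested Zbtb probe with the widest gap between these replicates.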
